A study of Mus musculus with 35 samples.

Results

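The Hox genes of the 4 mammalian clusters were followed across 6 tissues of the mouse embryo. Members were taken by gene name from the deposited tables, and 38 of the 30723 genes in those tables belong to the set: 10 in HoxA, 10 in HoxB, 9 in HoxC and 9 in HoxD. The 35 libraries were made from wild-type CD1 embryos at embryonic day 11.5 (E11.5), with no treatment and no engineered allele in any group. CD1 is an outbred mouse stock. Tissue came from the frontonasal prominence (FNP, 6 libraries), the mandibular prominence (MNP, 6), the maxillary prominence (MXP, 5), the limb (6), and the dorsal (dB, 6) and ventral (vB, 6) neural tissue that was taken from the future forebrain and midbrain. Each library holds tissue pooled from several embryos, so a value is an average over embryos and over every cell type in the dissected piece, and p-values measure the spread between these pooled samples.

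Hox genes encode transcription factors that bind DNA through the homeodomain, a stretch coded by the homeobox. They lie side by side in clusters that arose by duplication of an ancestral cluster, and members at the same place in different clusters carry the same paralogue number. Along the body axis, low numbers are used toward the head and high numbers toward the tail. In the limb bud the high-numbered HoxA and HoxD genes are used a further time, with the highest numbers in the part that forms hand and foot. The crest cells of the frontonasal and maxillary prominences and of the mandibular arch, and the forebrain and midbrain, are known as territories largely free of Hox expression.

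The homeoboxes of 5 members are shown because the results below turn on them: both limb-rich members of number 13, the most evenly expressed limb member, and those with the clearest signal in a facial tissue. They were read from the GENCODE M21 transcripts (GRCm38, the assembly also called mm10), 5′ to 3′, and the capitals mark the codons of the conserved stretch in the recognition helix, which contacts DNA. 
Hoxd13: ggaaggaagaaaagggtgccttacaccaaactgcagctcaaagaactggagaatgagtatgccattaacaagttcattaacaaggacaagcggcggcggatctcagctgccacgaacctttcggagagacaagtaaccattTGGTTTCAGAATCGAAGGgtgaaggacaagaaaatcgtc
Hoxa13: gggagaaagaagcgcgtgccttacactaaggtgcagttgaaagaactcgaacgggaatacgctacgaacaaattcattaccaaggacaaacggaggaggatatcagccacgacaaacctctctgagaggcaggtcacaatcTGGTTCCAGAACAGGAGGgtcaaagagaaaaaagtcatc
Hoxa10: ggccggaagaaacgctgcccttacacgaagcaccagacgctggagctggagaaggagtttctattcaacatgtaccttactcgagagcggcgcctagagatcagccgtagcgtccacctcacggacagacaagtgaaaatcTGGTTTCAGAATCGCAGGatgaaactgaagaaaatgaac
Hoxa2: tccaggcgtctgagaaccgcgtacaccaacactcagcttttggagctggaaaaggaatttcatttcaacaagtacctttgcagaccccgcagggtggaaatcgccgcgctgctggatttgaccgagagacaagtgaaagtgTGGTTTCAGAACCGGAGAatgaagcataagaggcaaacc
Hoxb9: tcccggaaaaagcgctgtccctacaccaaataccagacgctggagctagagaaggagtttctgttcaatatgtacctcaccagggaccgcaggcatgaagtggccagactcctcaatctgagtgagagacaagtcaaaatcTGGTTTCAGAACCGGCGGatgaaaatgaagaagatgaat

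Over the 180 bases, Hoxa13 and Hoxd13 were identical at 73.9% of positions. Hoxa10 matched its paralogue Hoxc10 at 80.6% of positions, and Hoxa2 matched Hoxb2 at 74.4%. Among all 38 members, 40 pairs shared a paralogue number and their median identity was 80.6%, against 60.6% in the 663 pairs with different numbers. Members of number 13 stood farther from the rest, with a median identity of 53.3% over 136 pairs with another number. How reads from such similar stretches were divided between paralogues is uncertain.

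Levels are given as FPKM, fragments per kilobase of transcript scaled to the mapped fragments of the library, summed over the transcripts of a gene, so values of different genes are per length. In mm10 the members lie at chr6:52162511-52260880 for HoxA, chr11:96194361-96368253 for HoxB, chr15:102921131-103036852 for HoxC and chr2:74668310-74765142 for HoxD. The library total is not in the tables. The coverage column was 2.70 to 5.51 per FPKM across libraries, and if it is the mean depth of 75-base reads, 1 FPKM stands for 36.1 to 73.5 reads per kilobase of transcript. Levels of a few hundredths of an FPKM therefore rest on a handful of reads. Libraries carry the replicate numbers of their labels, and the 6 libraries numbered 1 held 19.1% to 39.2% of their FPKM in transcripts under 200 bases, against 0.653% to 10.3% in the others. Library vB 4 stood apart from the other vB libraries, with Pbx2, a broadly expressed cofactor gene, at 15.6 FPKM against 64.7 to 88.1 in the rest.

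The tissue labels were checked against defining genes. In limb, Tbx5, a forelimb factor, had a lowest value of 12.8, a median of 18.4 and a highest value of 24.5 FPKM, and Tbx4, a hindlimb factor, had a lowest value of 6.70, a median of 22.7 and a highest value of 28.6 FPKM, so both were present in every limb library. The forebrain and midbrain factor Otx2 ranged over 51.3 to 105 FPKM in dB and 28.7 to 68.2 in vB. Of the hindbrain and spinal cord genes, Mnx1, a motor neuron factor, was listed at 0 in the 12 neural libraries, and Egr2, which marks rhombomeres of the hindbrain, reached at most 0.166 FPKM there. Other genes of that list were present in dB, with Olig3, a gene of dorsal hindbrain and spinal cord that is also used in the diencephalon, at 7.32 to 17.1 FPKM, Gbx2 at up to 3.31 and Phox2a at up to 1.04, so the list does not show that dB was free of hindbrain tissue. Hand2 separated MNP (72.7 to 106 FPKM) from FNP (0 to 0.0875), while library MXP 1 held 7.05 FPKM of it against 0 to 0.410 in the other 4 MXP libraries.

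Hox transcripts were abundant in limb and scarce in the other 5 tissues. The summed level of the 38 members was 713 ± 131 FPKM (SD, n = 6) in limb, 4.83 ± 2.20 (n = 6) in MNP, 3.00 ± 4.33 (n = 6) in FNP, 1.81 ± 1.55 (n = 5) in MXP, 0.719 ± 0.905 (n = 6) in dB and 0.250 ± 0.206 (n = 6) in vB. The lowest limb library, at 497 FPKM, lay far above the highest library elsewhere, FNP 5 at 11.8 FPKM. Single libraries set some of the low means, which were 1.23 ± 0.306 (n = 5) in FNP without FNP 5, 1.19 ± 0.773 (n = 4) in MXP without MXP 2 and 0.354 ± 0.146 (n = 5) in dB without dB 5, so FNP and MXP have no clear order. Between 30 and 35 members reached 1 FPKM in a limb library, 1 to 3 in an MNP library, 0 to 3 in an FNP library, 0 or 1 in an MXP library and none in any dB or vB library. At a level of 10 FPKM, 11 to 13 members remained in a limb library and none elsewhere. By tissue mean, 32 members reached 1 FPKM in limb, and a single member, Hoxa2 in MNP, reached it anywhere else. In bulk tissue, fewer expressing cells and less RNA per cell cannot be told apart.

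**Figure D1:**
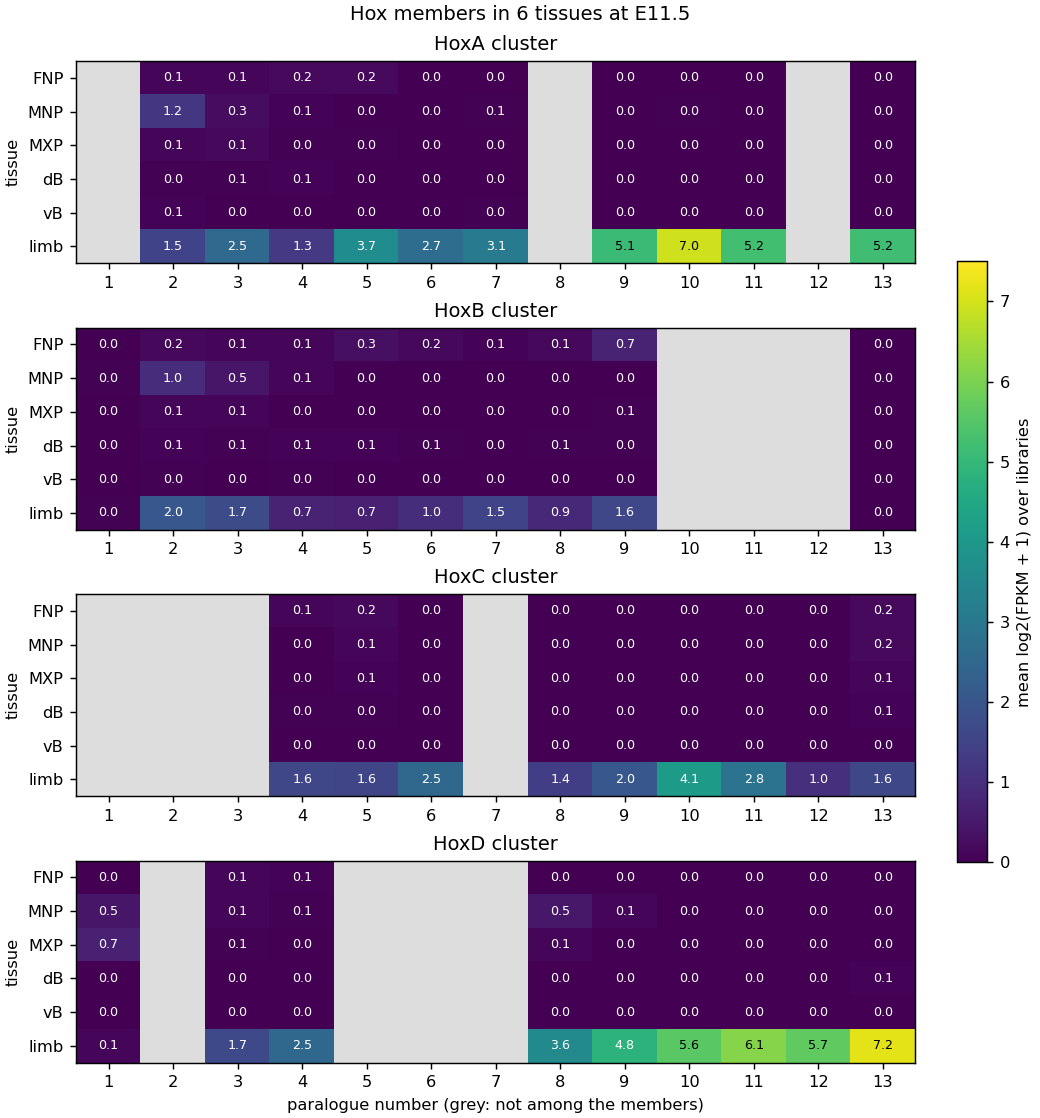
Mean log2(FPKM + 1) of each Hox member by paralogue number (columns) in each tissue (rows), 1 panel per cluster, over 6 libraries per tissue (5 for MXP); grey marks numbers with no member in the set. The limb row rises to 7.20 at Hoxd13 and 6.96 at Hoxa10, while outside limb the highest cells are Hoxa2 (1.19) and Hoxb2 (0.95) in MNP.

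To ask which members separated limb from face and brain, limma was fitted to log2(FPKM + 1) over the 35 libraries with 1 mean per tissue. A call needed both an adjusted p (Benjamini-Hochberg) below 0.05 and a 2-fold or larger difference, and because 1 is added to each FPKM, differences of low genes are understated. The filter asked for a tissue mean of 1 FPKM or more in any of the 6 tissues, which 32 members passed, each of them through limb. A member that passed only through limb had a mean under 1 FPKM in every other tissue, and so had to be higher in limb. Hoxa2 passed through MNP as well. The counts therefore describe the members and are no support for their direction. Against facial tissue (FNP, MNP and MXP averaged), 31 of the 32 were called higher in limb and 0 lower, where 1.11% of the 13934 genes tested were called higher. Against neural tissue (dB and vB averaged), again 31 were called higher and 0 lower, where 4.36% of genes were called higher. The median difference of the 32 members was 2.50 on the log2 scale against facial tissue and 2.52 against neural tissue, with medians over all genes tested of -0.02 and 0.01. Within the 32, limb values of Hoxa2, Hoxa4, Hoxb2 and Hoxb6 overlapped facial libraries, through MNP or FNP 5, and none overlapped a neural library. Passing the filter through limb favours such separation. The share of all genes that separate in this way was not counted, so this is a description only.

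Some calls lay at the 2-fold threshold. Hoxb6, the member not called, was higher in limb by 0.94 on the log2 scale against facial tissue (limma adjusted p = 1.54e-07) and by 0.97 against neural tissue (adjusted p = 4.16e-08). It passed the threshold when limb 2, limb 3 or limb 6 was left out (1.01, 1.02 and 1.02 against facial tissue, and 1.03, 1.04 and 1.04 against neural tissue), and fell below the filter without limb 1 or limb 4. Hoxc12 was called at 1.02 in both comparisons and fell to 0.93 in both without limb 2, and below the filter without limb 3. Hoxa2 was called against facial tissue at 1.03, and lost the call without limb 4 (0.91) or MNP 5 (0.97), with the sequencing run as a block (0.98), after rescaling without transcripts under 200 bases (just under 1.00), with replicates 1 to 3 alone (0.95), and when tested in limma against a fold of 1.5 (adjusted p = 0.0545). Taken tissue by tissue, 30 members were called higher in limb than in FNP (background 1.32%) and 30 than in MNP (1.22%), and 31 each than in MXP (1.44%), dB (3.75%) and vB (5.31%). Hoxb9 was among those not called against FNP (0.87) and Hoxa2 among those not called against MNP (0.31, adjusted p = 0.348 in limma).

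Members of numbers 9 to 13 carried most of the limb signal, at 88.8 ± 4.66% (SD, n = 6) of the summed Hox FPKM. Hoxd13, which patterns the digits, had a lowest value of 52.6, a median of 169 and a highest value of 262 FPKM, and in the facial libraries it did not exceed 0.0467 FPKM. It was higher in limb by 7.19 ± 0.17 (SE) on the log2 scale against facial tissue (limma adjusted p = 1.76e-26) and by 7.16 ± 0.18 against neural tissue (adjusted p = 9.04e-26). Hoxa10 had a lowest value of 109.9, a median of 123 and a highest value of 141 FPKM. Outside limb Hoxa10 did not exceed 0.0858 FPKM. Its highest limb library was 1.28 times its lowest, the smallest spread among the 35 members above 0.1 FPKM in each limb library. Its differences were 6.95 ± 0.05 against facial (limma adjusted p = 9.18e-43) and 6.95 ± 0.05 against neural tissue (adjusted p = 4.60e-42). Hoxd11, a gene of the forearm and hand segments, had a lowest value of 48.9, a median of 65.3 and a highest value of 102 FPKM against at most 0.103 elsewhere, with differences of 6.12 ± 0.09 (adjusted p = 1.01e-33 in limma) and 6.12 ± 0.09 (adjusted p = 4.86e-33).

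The other limb-rich members of this class were Hoxd12 at 53.9 ± 19.0 FPKM (SD, n = 6), Hoxd10 at 47.1 ± 5.11, Hoxa13 at 41.2 ± 19.9, Hoxa11 at 36.8 ± 6.10, Hoxa9 at 33.6 ± 4.35, Hoxd9 at 28.4 ± 7.49 and Hoxc10 at 17.0 ± 6.06. Hoxa11, with its HoxD paralogue, is needed for the forearm, and Hoxa13 acts with Hoxd13 in the hand plate. Hoxc11, Hoxc9, Hoxc13, Hoxb9 and Hoxc12 were between 1.15 ± 0.776 and 6.76 ± 3.03 FPKM. Hoxc11 and Hoxc12 were listed at 0 in all 17 facial libraries, as was Hoxa6 of the middle class. Hoxb13 is the exception, listed at 0 in 5 limb libraries and at 0.0300 FPKM in the other.

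The middle class, numbers 4 to 8, made up 8.93 ± 3.65% (SD, n = 6) of limb Hox FPKM, and 12 of its 15 members passed the filter. Hoxa5 had a lowest value of 9.45, a median of 11.6 and a highest value of 13.6 FPKM, Hoxd8 had a lowest value of 7.23, a median of 10.7 and a highest value of 15.6 FPKM and Hoxa7 had a lowest value of 5.29, a median of 8.01 and a highest value of 10.4 FPKM. These genes are known mainly for neck and trunk identity. Their limb levels did not overlap any facial or neural library. Hoxa5 was higher by 3.57 ± 0.10 against facial tissue (limma adjusted p = 5.43e-24), Hoxd8 by 3.36 ± 0.13 (adjusted p = 5.57e-20) and Hoxa7 by 3.10 ± 0.08 (adjusted p = 1.12e-25). Hoxb4, Hoxb5 and Hoxb8 did not pass the filter, with limb means of 0.682 ± 0.457, 0.690 ± 0.548 and 0.871 ± 0.475 FPKM. The remaining 9 members, Hoxa4, Hoxa6, Hoxb6, Hoxb7, Hoxc4, Hoxc5, Hoxc6, Hoxc8 and Hoxd4, had limb means from 1.08 ± 0.696 (Hoxb6) to 5.64 ± 1.91 FPKM (Hoxa6).

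Numbers 1 to 3 contributed 2.27 ± 1.02% (SD, n = 6). Hoxa3, which with its paralogues patterns the pharyngeal pouches, had a lowest value of 3.11, a median of 4.94 and a highest value of 6.46 FPKM, a difference of 2.38 ± 0.08 from facial tissue (limma adjusted p = 5.50e-22). Hoxb2, a hindbrain gene, had a lowest value of 1.34, a median of 2.95 and a highest value of 6.70 FPKM, and differed from facial tissue by 1.61 ± 0.15 (adjusted p = 8.11e-10 in limma). Hoxd3, a neck-vertebra gene, had a lowest value of 1.31, a median of 1.83 and a highest value of 3.75 FPKM, with a difference of 1.55 ± 0.10 (limma adjusted p = 2.88e-14). Hoxb3 stood at 2.52 ± 1.45 FPKM (SD, n = 6) and Hoxa2 at 1.89 ± 0.680. Hoxb1 and Hoxd1 did not pass the filter, with limb libraries at 0 to 0.0694 and 0 to 0.284 FPKM. Together with Hoxb13 they are the 3 members whose highest tissue mean was not in limb.

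Within the clusters, limb levels rose with paralogue number in HoxD and HoxA. Ranked within each library, Spearman's rho between paralogue number and level across the 9 HoxD genes was 0.88 to 1.00 over the 6 libraries, and across the 10 HoxA genes it was 0.65 to 0.88. In HoxB it was -0.27 to -0.02 and in HoxC -0.57 to 0.65. These are descriptions across genes of 1 library, which are not independent replicates. Steps from a member to the next were not all beyond the spread between libraries. In HoxD, Hoxd9 exceeded Hoxd8 and Hoxd13 exceeded Hoxd12 in 6 of 6 libraries, whereas Hoxd12 exceeded Hoxd11 in 1 of 6. In HoxA, Hoxa10 lay above both neighbours with no overlap, and Hoxa13 exceeded Hoxa11 in 3 of 6 libraries. HoxC peaked at Hoxc10, above Hoxc9 and Hoxc11 with no overlap.

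Clusters also differed in how much they gave. HoxD supplied 53.7 ± 5.46% of limb Hox FPKM, HoxA 38.2 ± 2.43%, HoxC 6.09 ± 2.12% and HoxB 2.07 ± 1.37% (SD, n = 6). Compared at the same paralogue number, the HoxD member was the highest in 6 of 6 limb libraries for numbers 4, 8, 11, 12 and 13, and the HoxA member for 5, 7 and 10. At number 9, Hoxa9 was the highest in 4 of 6 libraries. For number 6, Hoxa6 was the highest in 3 of 6, so that Hoxa6 (5.64 ± 1.91 FPKM) and Hoxc6 (5.53 ± 3.47) did not separate beyond their spread. Number 2 is a case where HoxB led, Hoxb2 exceeding Hoxa2 in 5 of 6 libraries.

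**Figure D2:**
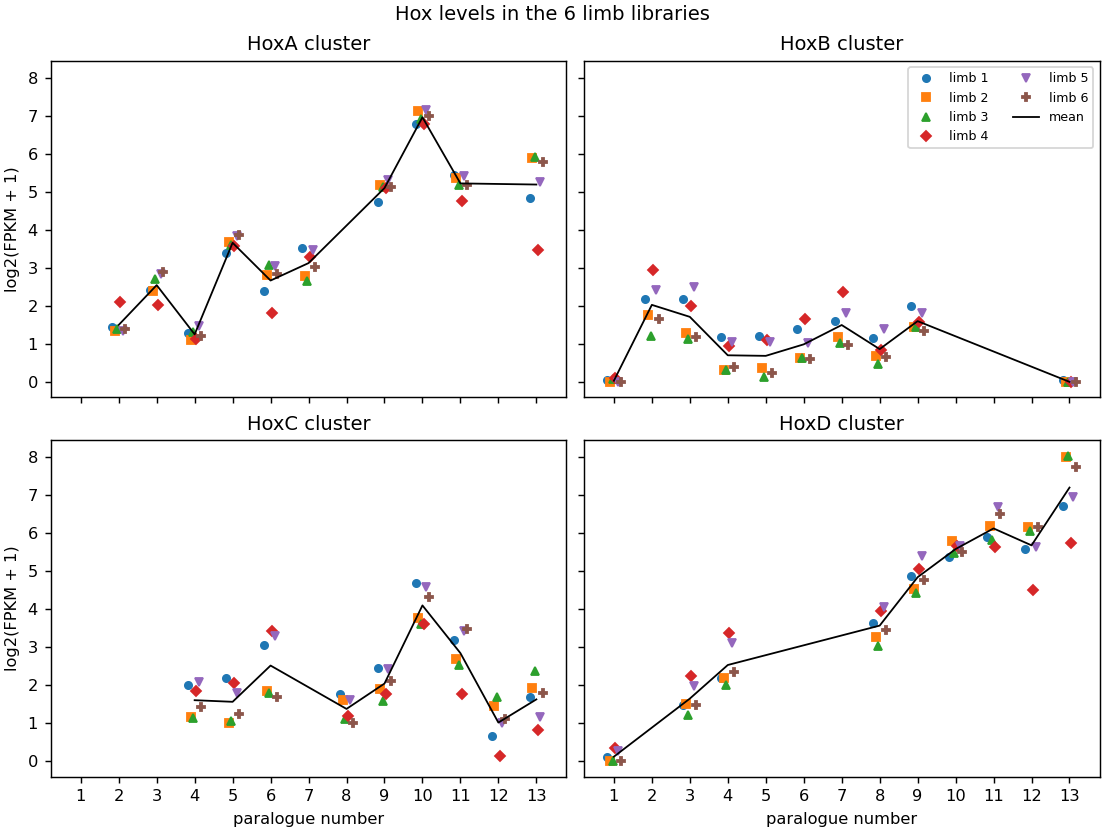
Level of each Hox member in the 6 limb libraries, as log2(FPKM + 1) against paralogue number, 1 panel per cluster; symbols are libraries and the line joins the means of the members. HoxD climbs to Hoxd13, HoxA peaks at Hoxa10, HoxC at Hoxc10, and HoxB stays at or under a mean of 2.03; limb 4 is low at the right-hand end of HoxA, HoxC and HoxD.

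Some sums depend on how overlapping transcripts were divided. The deposited Hoxa3 transcript spans Hoxa4, Hoxa5 and Hoxa6, and a Hoxd3 transcript spans Hoxd4. Of the 9 members with 2 transcripts, Hoxa10 had 70.0 ± 7.28% (SD, n = 6) of its limb FPKM in the longer-spanning form, chr6:52231197-52240854, and the remainder in chr6:52231197-52234939. For Hoxb8, whose forms start together and end 10 bases apart, the share of the leading form was 53.5 ± 45.5% between limb libraries, so only its sum is used.

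The limb libraries were not alike. Values below are for limb 1 to limb 6 in order. Hoxd13 stood at 103, 256, 262, 52.6, 123 and 214 FPKM, and Hoxa13 at 27.6, 58.5, 59.5, 10.1, 37.0 and 54.3. Both were highest in libraries 2, 3 and 6 and lowest in limb 4. Hoxc12 stood at 0.603, 1.77, 2.25, 0.103, 1.02 and 1.17 FPKM, and Hoxc13 at 2.24, 2.84, 4.16, 0.763, 1.24 and 2.48. Some members of lower number had the opposite order. Hoxc6 stood at 7.28, 2.59, 2.51, 9.75, 8.80 and 2.24 FPKM, Hoxb6 at 1.66, 0.563, 0.540, 2.18, 1.03 and 0.511, Hoxb7 at 2.05, 1.29, 1.05, 4.21, 2.51 and 0.966 and Hoxd4 at 3.54, 3.55, 3.06, 9.34, 7.63 and 4.07. Libraries 1, 4 and 5 were thus high for Hoxc6, Hoxb6 and Hoxb7, with no overlap with 2, 3 and 6. For Hoxd4 only 4 and 5 stood clear, and Hoxa2 to Hoxa6 and Hoxd3 overlapped between the libraries. Hoxa10 stood at 110.1, 138, 119, 109.9, 141 and 127 FPKM, with no such order.

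Other genes moved with the same libraries. Meis1, a proximal limb gene whose product binds DNA together with Hox proteins, stood at 15.6, 4.00, 4.30, 14.7, 14.0 and 5.02 FPKM, and Meis2 at 20.0, 5.82, 5.65, 13.4, 17.0 and 6.03. Pax1, which marks the shoulder girdle and somite-derived skeleton, stood at 7.78, 0.351, 0.0942, 7.08, 6.38 and 0.725 FPKM. Limb patterning genes of other kinds had the same order. Fgf8 ran over 42.6 to 57.4 FPKM in limb 1, 4 and 5 and 17.7 to 26.7 in 2, 3 and 6. Shh ran over 4.91 to 7.57 against 1.68 to 4.50 FPKM, and Fgf4 over 0.986 to 1.18 against 0.0509 to 0.245. Alx4 and Tcf15 were also higher in 1, 4 and 5 without overlap. The ratio of the embryonic globins Hbb-bh1 to Hbb-y was 0.298, 0.189, 0.149, 0.424, 0.331 and 0.122. That ratio ran from 0.274 to 0.424 in the 17 libraries numbered 1, 4 and 5 and from 0.110 to 0.189 in the 18 numbered 2, 3 and 6, in every tissue without overlap. The part of what these genes and this ratio follow in the Hox values was not tested. Of the 32 members at or above a limb mean of 1 FPKM, 11 lay higher in all of limb 1, 4 and 5 than in any of 2, 3 and 6 (Hoxa7, Hoxb2, Hoxb3, Hoxb6, Hoxb7, Hoxb9, Hoxc4, Hoxc5, Hoxc6, Hoxd8 and Hoxd9), where 9.31% of 12286 genes did. Another 5 lay lower (Hoxa13, Hoxc12, Hoxc13, Hoxd12 and Hoxd13), where 11.9% of genes did. This division of samples was drawn from the data and is not a group of the study, and it carries no test.

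**Figure D3:**
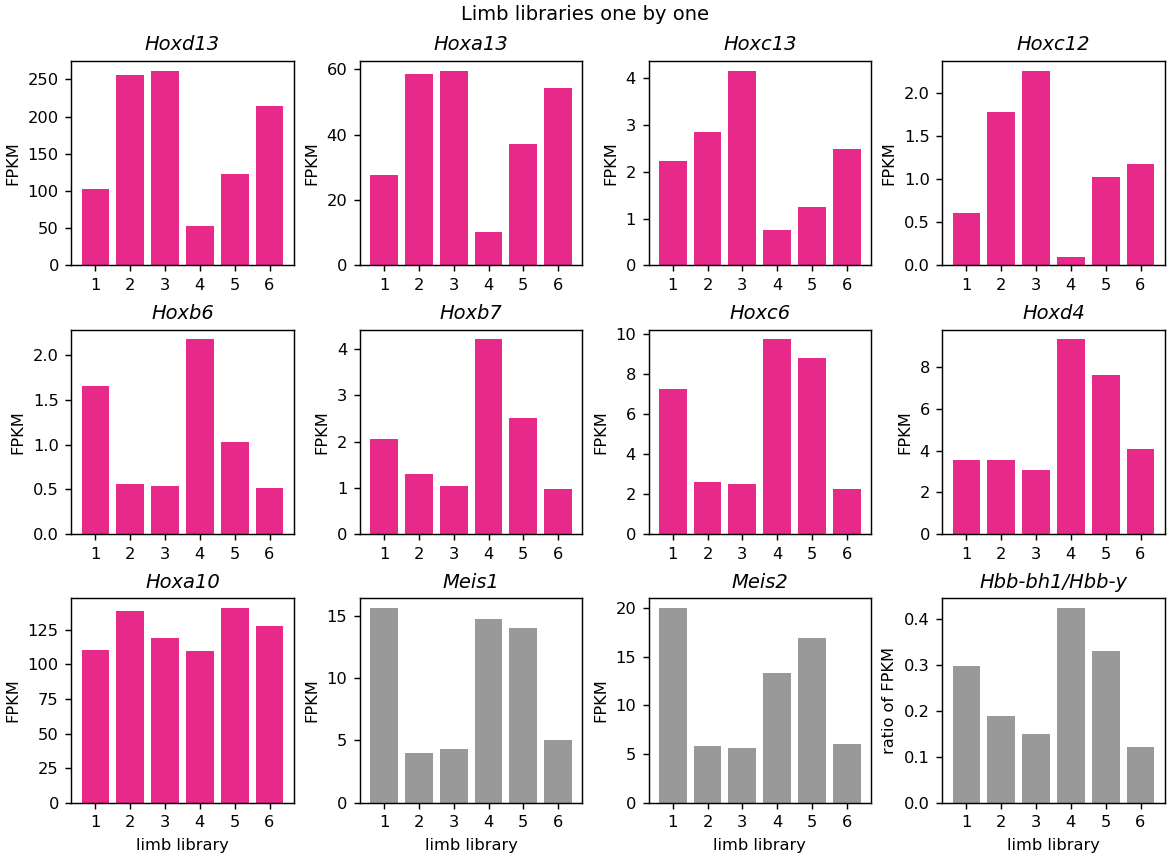
FPKM of 9 Hox members, Meis1 and Meis2, and the ratio of Hbb-bh1 to Hbb-y FPKM, in each of limb libraries 1 to 6 (bars, axes from 0). Hoxd13, Hoxa13 and Hoxc12 are lowest in limb 4, where Hoxb6, Hoxb7, Hoxc6 and Hoxd4 are highest, and Hoxa10 lies between 109.9 and 141 FPKM in every library.

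Among facial tissues, MNP held Hoxa2 and Hoxb2. Hoxa2 specifies the crest cells of the second pharyngeal arch, which lies next to the mandibular arch, and Hoxb2 is its paralogue. In MNP, Hoxa2 had a lowest value of 0.279, a median of 1.36 and a highest value of 3.00 FPKM. In FNP it had a lowest value of 0, a median of 0.0198 and a highest value of 0.418 FPKM, and the MXP values ran over 0 to 0.286 FPKM. MNP 5 was inside the range of FNP and MXP, and the other MNP libraries were above every FNP and MXP library. Hoxa2 was called higher in MNP than in FNP, by 1.08 ± 0.16 (SE) on the log2 scale (limma adjusted p = 9.11e-06), and higher than in MXP, by 1.08 ± 0.17 (adjusted p = 6.66e-05 in limma). Hoxa2 was the only member called, 1 of 32 in each comparison, against 0.990% and 0.689% of genes called higher. It was also the only member with a mean of 1 FPKM in a facial tissue, so no other member could reach a 2-fold difference with 1 added. Without MNP 6 the differences were 0.92 and 0.91, under the 2-fold threshold, with adjusted p in limma of 2.21e-05 and 0.000150. With replicates 4 to 6 alone they stayed over 2-fold, at 1.01 and 1.15, and the adjusted p in limma was 0.178 and 0.537. Tested against a fold of 1.5, the adjusted p was 0.118 and 0.457.

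Hoxb2 had a lowest value of 0.299, a median of 1.15 and a highest value of 1.61 FPKM in MNP, which corresponds to 32.5 to 113 reads of 75 bases under the reading of coverage given above. Its differences were 0.79 ± 0.19 from FNP (limma adjusted p = 0.00458) and 0.81 ± 0.20 from MXP (adjusted p = 0.0162), under the 2-fold threshold. FNP 5, at 0.608 FPKM, and MXP 1, at 0.376, overlapped the MNP range. MXP 1 is also the library that held more Hand2 than the other MXP libraries. Without it the Hoxb2 difference between MNP and MXP was 0.89. Hoxb3 ran over 0.219 to 0.674 FPKM in MNP and Hoxa3 over 0.0634 to 0.311. Numbers 1 to 3 made up 76.2 ± 10.1% (SD, n = 6) of the summed Hox FPKM in MNP.

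Hoxd1 and Hoxd8 differed between MNP libraries. For MNP 1 to 6 in order, Hoxd1 stood at 0.0579, 1.54, 0.427, 0, 0.0227 and 0.749 FPKM and Hoxd8 at 0.0334, 1.49, 0.644, 0, 0 and 0.875. Libraries 2, 3 and 6 held both and the other 3 held little of either. Pax1, which is used in pharyngeal pouch endoderm as well as in skeleton, stood at 2.15, 19.2, 8.22, 0.407, 1.58 and 8.72 FPKM in the same order. In MXP, for libraries 1, 2, 3, 5 and 6, Hoxd1 stood at 0, 3.62, 0.432, 0.114 and 0.517 FPKM and Pax1 at 7.39, 53.7, 37.3, 5.69 and 51.6. MXP 2 was the highest for both genes. The part of Pax1-expressing cells in the Hoxd1 and Hoxd8 values was not tested. Hoxd8 was not called between MNP and FNP (0.47 on the log2 scale, adjusted p = 0.0753 in limma).

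FNP held a different member, Hoxb9, a trunk gene next to a noncoding gene. Hoxb9 (chr11:96271330-96276593) had a lowest value of 0.355, a median of 0.715 and a highest value of 0.926 FPKM in FNP, or 29.5 to 85.6 reads of 75 bases, and was above every MXP and MNP library. In MNP it ran over 0 to 0.0764 FPKM and in MXP over 0 to 0.209. It was lower in MNP than in FNP by 0.71 ± 0.09 on the log2 scale (limma adjusted p = 4.31e-07) and higher in FNP than in MXP by 0.68 ± 0.09 (adjusted p = 2.93e-06), under the 2-fold threshold. No member was called between FNP and MXP in either direction (background 2.28%), and 1 had an unadjusted p under 0.05. No member had a mean of 1 FPKM in FNP or MXP, so with 1 added a 2-fold difference was out of reach there. The annotated gene Gm53 (chr11:96251660-96264484), between Hoxb13 and Hoxb9, had a lowest value of 2.01, a median of 3.85 and a highest value of 5.32 FPKM in FNP. It was listed at 0 in the 5 MXP libraries and reached at most 0.0777 FPKM in MNP. Gm53 was called lower in MNP than in FNP, at -2.18 on the log2 scale (limma adjusted p = 1.70e-15), among 1.69% of genes called lower. Its limb level was 3.14 ± 0.799 FPKM (SD, n = 6) and its dB level 0.117 ± 0.0662. Gm53 belongs to the list of noncoding and uncharacterised genes of the clusters, not to the 38 members.

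Low members were sensitive to the value added before the logarithm. With 0.1 in place of 1, Hoxb2 (2.44), Hoxb3 (1.45) and Hoxd8 (1.57) were called higher in MNP than in FNP along with Hoxa2, against 1.51% of genes, and Hoxb9 was called lower (-2.69, against 3.94%). Hoxb2 (2.46) and Hoxa2 were then called higher in MNP than in MXP (0.976% of genes), and Hoxb9 higher in FNP than in MXP (2.58, against 3.09%). These are log2 differences on that scale.

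**Figure D4:**
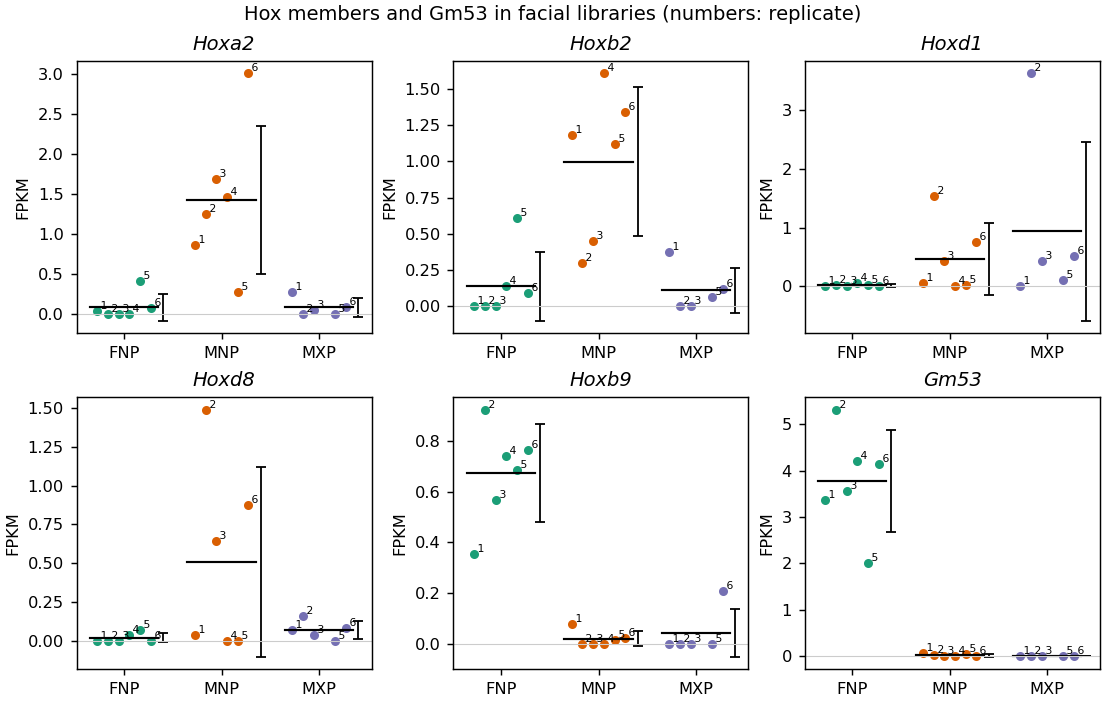
FPKM of 5 Hox members and of Gm53 in each FNP, MNP and MXP library (points, numbered by replicate), with the mean (line) and SD (bracket) of each tissue. Hoxa2 and Hoxb2 are raised in MNP, Hoxb9 and Gm53 in FNP, and Hoxd1 and Hoxd8 only in some MNP and MXP libraries.

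Hoxc13 ran over 0 to 0.396 FPKM in FNP, and most of the other Hox signal lay in 1 library. FNP 5 held 17 members at or above 0.1 FPKM, where the other 5 FNP libraries held 2 or 3 (Hoxb9 in each). Hoxb5 stood at 2.04 FPKM in FNP 5, Hoxa5 at 1.27, Hoxa4 at 1.23, Hoxb6 at 0.793 and Hoxc5 at 0.777. In the other FNP libraries these 5 genes did not exceed 0.150 FPKM. Hoxa9, Hoxa10, Hoxa11, Hoxd9, Hoxd10, Hoxd11, Hoxd12 and Hoxd13 were all listed at 0 in FNP 5. Hoxa13, listed at 0 in every other library outside limb, stood at 0.0548 FPKM (3.69 reads) in FNP 5. The neural gene Olig3 (0.649 FPKM) was higher there than in the other FNP libraries (0.0237 at most), and Mnx1 stood at 0.0388 FPKM against 0 in the rest. Gbx2 was also highest in FNP 5 (0.288 FPKM, next highest 0.203), whereas Egr2 was lowest there (0.0146) and Phox2a was highest in FNP 4 (0.293). The summed level of the hindbrain and spinal cord markers Egr2, Phox2a, Gbx2, Olig3, Mnx1 and Isl2 was 6.25 FPKM in FNP 5, against 6.49 to 9.31 in the others. That sum mostly follows Isl2, at 5.11 FPKM in FNP 5 and 6.38 to 9.16 in the others, and hides the rest of the list. The part of hindbrain or spinal cord cells in the Hox values was not tested. Without FNP 5, the count of members called in MNP against FNP stayed at 1, and the Hoxa2 difference was 1.16.

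In neural tissue the members were close to 0. The highest value in a dB library was 0.429 FPKM, Hoxb5 in dB 5, and the highest in a vB library was 0.225 FPKM, Hoxa2 in vB 4. Of the 16 members numbered 9 to 13, 12 were listed at 0 in the 6 dB libraries and 13 in the 6 vB libraries. Library dB 5 resembled FNP 5 in which genes it held, with Hoxa4 at 0.310 FPKM, Hoxb6 at 0.258, Hoxb8 at 0.240 and Hoxc4 at 0.219, each at or under 0.0396 FPKM in the other dB libraries. Among the high numbers, Hoxc13 had the highest value in dB, at 0.135 FPKM in dB 3 and 0 to 0.124 in the others, Hoxb9 reached 0.104 in dB 5, and Hoxd13 stood at 0.0459, 0.0244, 0.0804, 0.0592, 0 and 0.0458 FPKM in dB 1 to 6, at most 15.2 reads. No member was called between dB and vB (background 1.39% of genes in either direction) or between neural and facial tissue (11.3%) in limma. Of the 32 members, 0 and 4 had an unadjusted p under 0.05 in limma. No member averaged 1 FPKM in dB, in vB or over the 17 facial libraries, where Hoxa2 was highest at 0.561 FPKM. After adding 1, a 2-fold difference was therefore out of reach, and the 0 calls carry no information on the members. With 0.1 in place of 1 added to each FPKM, Hoxa2 and Hoxb2 were called lower in neural than in facial tissue, at -1.28 and -1.23 on the log2 scale (background 7.63% lower).

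**Figure D5:**
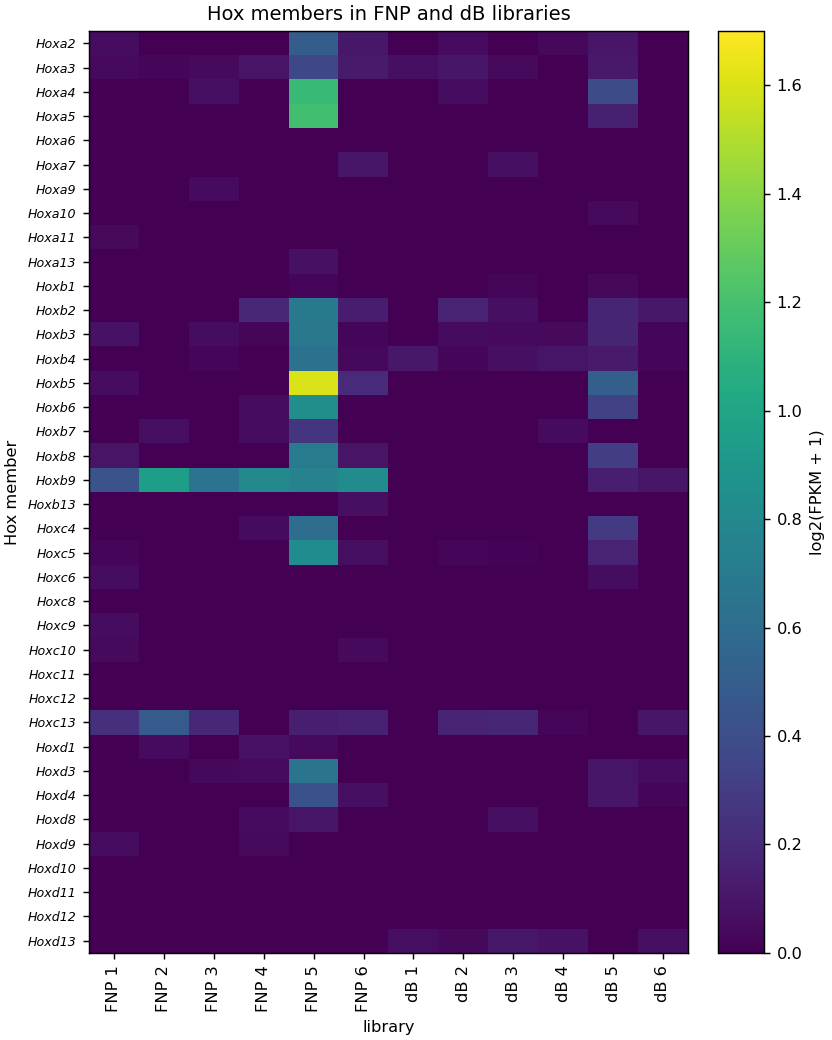
log2(FPKM + 1) of the 38 Hox members (rows, by cluster) in the 6 FNP and 6 dB libraries (columns). FNP 5, and more faintly dB 5, hold genes of numbers 2 to 8, Hoxb9 is present in every FNP library, Hoxc13 reaches 0.396 FPKM in FNP, and the remaining cells are near 0.

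Noncoding genes and neighbours of the clusters were read for the same libraries. Hoxa11as, an antisense gene that overlaps Hoxa11, stood at 152 ± 57.4 FPKM (SD, n = 6) in limb and at most 0.114 FPKM in any other library. Whether reads were assigned by strand is not given in the sources used here, so Hoxa11 and its antisense partner cannot be told apart where they overlap. Hotair, a noncoding gene between Hoxc12 and Hoxc11, stood at 1.60 ± 0.484 FPKM in limb and was listed at 0 in the 29 other libraries. Mira, next to Hoxa7, stood at 11.1 ± 2.55 FPKM in limb. Evx1 and Evx2, homeobox genes at the number-13 ends of HoxA and HoxD, stood at 6.32 ± 2.08 and 5.95 ± 3.71 FPKM, and were called higher in limb than in facial tissue by 2.68 and 2.54 on the log2 scale (limma adjusted p = 3.59e-19 and 3.13e-11). For limb 1 to 6, Evx2 stood at 3.50, 8.45, 8.85, 0.745, 4.02 and 10.1 FPKM, lowest in limb 4 like Hoxd13. Of 19 listed noncoding genes of the clusters 4 were tested, and 3 of them (Hoxa11as, Hotair and Gm53) were called higher in limb than in facial tissue and 0 lower, where 1.11% of all genes tested were called higher. Hotair, Hoxa11as and Evx2 passed the filter only through limb, so their direction was fixed by it. Evx1 also passed it through limb, at 6.32 ± 2.08 FPKM, so its call too is given as a description only. Gm53 was higher in FNP (3.77 ± 1.10 FPKM) than in limb (3.14 ± 0.799), which the facial average does not show. Of the 10 genes flanking the clusters, 8 were tested, 3 were called higher in limb than in facial tissue (Evx1, Evx2 and Skap2) and 0 lower, against the same 1.11%.

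The clusters also hold the microRNAs of the miR-10 and miR-196 families, which pair with Hox transcripts through the seed, bases 2 to 8, in capitals here (RefSeq, GRCm38.p6).
miR-10a-5p: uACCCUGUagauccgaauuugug
miR-10b-5p: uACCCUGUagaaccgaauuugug
miR-196a-5p: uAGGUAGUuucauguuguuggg
miR-196b-5p: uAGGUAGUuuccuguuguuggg
Hoxb8 site: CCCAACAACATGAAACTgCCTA

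Both miR-10 forms share a seed, as do both miR-196 forms. The Hoxb8 site lies at bases 2208 to 2229 of the Hoxb8 transcript (GENCODE M21), and its capitals mark 21 of 22 bases that pair with miR-196a-5p. The lower-case g lies opposite a base of the seed, so this site does not hold the exact seed match. The seed match ACTACCT, searched on the transcript strand, occurs in the transcripts of 10 of the 38 members and of 15.95% of 21877 genes, and the miR-10 match ACAGGGT in 6 of 38 members and 18.93% of genes. These matches are descriptions. The libraries were made from polyadenylated RNA and do not measure mature microRNAs. The hairpin genes Mir10a, Mir10b, Mir196b, Mir196a-2 and Mir615 were listed at 0 in every library, and Mir196a-1 was at 0 in all but FNP 2, dB 6, limb 3 and limb 6.

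Genes for cofactors of Hox proteins were also read. Of the 9 tested genes of the TALE family (Pbx, Meis and Pknox), whose products bind DNA beside Hox proteins, 0 were called higher and 2 lower in limb than in facial tissue, where 1.51% of genes were called lower. Meis3 stood at 1.16 to 2.55 FPKM in limb and 7.65 to 14.1 in facial libraries, a difference of -2.16 ± 0.11 on the log2 scale (limma adjusted p = 5.75e-17), and Meis2 differed by -1.28 ± 0.25 (adjusted p = 0.000275). Against neural tissue 0 were called higher and 3 lower (background 8.05%), Pbx4 being the third. Pbx2, broadly expressed, ranged over 42.4 to 85.1 FPKM in limb. Of 21 listed regulators of Hox genes, 15 were tested, and 1 was called higher (Cyp26b1, which breaks down retinoic acid) and 1 lower (Rarb, a retinoic acid receptor) in limb than in facial tissue, against 1.11% and 1.51% of all genes. Of the 20 limb patterning genes tested, 8 were called higher and 4 lower in that comparison, against the same shares.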

How the data were processed

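RNA-seq libraries (polyadenylated RNA, paired reads of 75 bases) were analysed from 6 tissues, with groups and replicate numbers taken from the labels. The authors deposited 1 Cufflinks table per library on mm10, with a FPKM value and the coverage signal per transcript for 59120 transcripts. Bowtie2 and mm10 are named in the submitters' processing notes, with no version, and the strand setting is not stated there. The deposited FPKM values were summed per gene, leaving out 65 transcripts whose listed position could not be read as a chromosome range. Tables hold no counts, so no count model was used, depth is known only through the coverage column, and read equivalents cover counting error only.

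limma 3.58.1 (R 4.3.3, trend and robust) was fitted to log2(FPKM + 1) over 35 libraries with 1 mean per tissue, for 13934 genes whose mean reached 1 FPKM in any tissue. P-values were adjusted by Benjamini-Hochberg within each comparison over all genes tested, and a call needed an adjusted p under 0.05 and a fold of 2. Tested on simulated data for limb against facial tissue (13934 genes), the fit called 96 of the 100 genes shifted by 1.5 (log2), 99 of the 100 shifted by 2.5, and 1 unchanged gene. The simulated spread was normal, independent between libraries and without a lower limit. It therefore does not give error rates for low members or for same-numbered libraries that vary together.

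The 38 members and the lists of noncoding, flanking, cofactor, regulator, limb patterning and marker genes were chosen with earlier results of these data known. All members are accounted for. Some listed marker genes are not reported here. From other lists the text gives counts, the genes with the largest change, and markers read beside a Hox value. Same-numbered libraries had a correlation over 0.1 in every pair for 8 of 15 pairs of tissues. Among them were FNP and MNP (lowest 0.299), FNP and MXP (0.356), MNP and MXP (0.334), and dB and vB (0.260). The main fit, whose values are given unless stated, did not use this pairing. The replicate number entered as a block in an alternative fit. With it, Hoxa2 was higher in MNP by 1.08 against FNP (adjusted p in limma 1.46e-05) and 1.04 against MXP (0.000181). Alternatives were another pseudocount, filter, normalization, block or fold threshold, sets of replicates, and each library left out. Python 3.11.15, pandas 2.3.3, Biopython 1.88 and matplotlib 3.10.9 were used.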

Additional observations from a re-analysis of the deposited data

Results flagged for a closer look

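Dixon's test was applied to the members in 43 groups of 5 or 6 libraries, and 7 groups had a sample farther from the rest than the 95% critical value. Groups with no library at 1 FPKM were not examined, so the 7 are not all the outlying samples. In FNP 5, Hoxb6 at 0.793 FPKM (next highest 0.0414) and Hoxc5 at 0.777 (next highest 0.0448) belong to such groups. The usual chance rate of about 1 in 20 does not apply to every group examined. The FNP groups of Hoxa4, Hoxa5 and Hoxb5 and the MXP group of Hoxd1 were examined only because 1 library reached 1 FPKM. That same library was the one flagged, so these flags are descriptions only. In FNP 5, Hoxb5 stood at 2.04 FPKM (next highest 0.150), Hoxa5 at 1.27 (all other FNP libraries at 0) and Hoxa4 at 1.23 (next highest 0.0483). In limb 4, Hoxa2 was the highest at 3.27 FPKM (next highest 1.71) and Hoxd12 the lowest at 21.6 (next lowest 46.7). In limb 1, Hoxa9 was the lowest at 25.7 FPKM (next lowest 33.4). In MXP 2, Hoxd1 stood at 3.62 FPKM (next highest 0.517), where Pax1 was also highest, at 53.7 FPKM.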

How the results depend on the processing

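The counts of members called depended most on the pseudocount. With 0.1 in place of 1, 2 members were called between neural and facial tissue, 5 between MNP and FNP (Hoxa2, Hoxb2, Hoxb3, Hoxb9 and Hoxd8), 2 between MNP and MXP and 1 between FNP and MXP. With replicates 4 to 6 alone, and with a test against a fold of 1.5, 0 members were called between MNP and FNP and 0 between MNP and MXP. Calls over all genes fell as well. Genes called higher in MNP than in FNP went from 138 to 78 with these replicates and to 68 with that fold. Against MXP they went from 96 to 31 and to 33. Calls lower in MNP also fell, and MXP 5 and MXP 6 are the only MXP libraries in that set. Leaving out 1 library at a time gave 30 to 32 members in limb against facial tissue, 31 to 32 against neural tissue, 29 to 30 against FNP, 29 to 31 against MNP, 31 to 32 against each of MXP, dB and vB, 0 to 1 in MNP against FNP and against MXP, and 0 to 0 in the remaining comparisons. With the replicate block the counts were 31 in limb against facial and 31 against neural tissue, 1 in MNP against FNP and 1 against MXP, and the block changed 0 of 12 counts. Limb had a mean correlation of 0.264 (MXP) to 0.374 (dB) with the same-numbered libraries of another tissue, but not every pair was over 0.1 (lowest 0.00777). Of 35 differences of named members under 10 other settings, 321 of 344 values kept direction and side of the threshold, 8 lost the call (all Hoxa2, in limb against facial tissue and in MNP against FNP and MXP), 15 gained it and 0 reversed. Of 1219 values with a library left out, 1207 did so, 6 lost the call (Hoxa2 and Hoxc12) and 6 gained it (Hoxb6). In the settings without a value, Hoxb6 or Hoxc12 fell below the filter. Without the filter 22333 genes were tested. Levels below about 0.1 FPKM rest on a few reads, and differences there were not detectable at this depth.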
